A study of Mus musculus with 6 samples.

Results

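The TOX family consists of 4 genes, *Tox*, *Tox2*, *Tox3* and *Tox4*. They were taken from the matrix by gene name, and all 4 were found among its 22248 genes. The family was chosen by the FPKM difference between the groups, since *Tox2* stood out in this contrast. The values of the members are therefore given as a description, with no test.

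The samples were bone-marrow-derived macrophages (BMDMs), grown from mouse bone marrow with macrophage colony-stimulating factor and left resting. The control group was 3 libraries from *Lyz2cre* mice, and the CITED2-deficient group was 3 libraries from *Cited2 fl/fl:Lyz2cre* mice. All mice were C57BL/6, aged 10 weeks by the sample labels, and carried 1 copy of Cre at the *Lyz2* locus, which is active in myeloid cells. The CITED2-deficient mice also carried floxed *Cited2* on both chromosomes. The study's methods give a lower age than the labels. The labels do not say whether the libraries of a group came from separate mice, so the spread between them may be technical. The values are FPKM, which count sequenced fragments per kilobase of transcript and are scaled to the size of the library. Where 3 values of a group follow each other, they are those of replicates 1, 2 and 3.

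TOX proteins bind DNA through a high-mobility-group box, a domain that bends DNA and that is nearly identical among the members. TOX is best known from T cells, where calcium signals through calcineurin and NFAT switch it on and where it is needed for CD4 lineage commitment and for the exhausted state. TOX2 acts in follicular helper T cells and natural killer cells, TOX3 acts in neurons and epithelium as a calcium-dependent partner of CREB and CITED proteins, and TOX4 is a widely expressed subunit of a nuclear phosphatase complex called PTW/PP1.

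The start regions of the expressed members, *Tox2* and *Tox4*, are shown first, because they are the places from which the measured RNA can begin. RefSeq (GRCm38.p6, the patched mm10 assembly) lists 5 start windows for *Tox2*, 1 for *Tox3* and 1 for *Tox4*. *Tox* had no entry. Each window runs from 250 bases before a start to 50 bases after it. The *Tox2* windows fall into an upstream and a downstream cluster, and the outermost windows lie 22327 bp apart. One window of each cluster and the *Tox4* window are printed 5′ to 3′ on the plus strand, with each CG dinucleotide in capitals.
Tox2, upstream start, chr2:163202877-163203176, plus strand: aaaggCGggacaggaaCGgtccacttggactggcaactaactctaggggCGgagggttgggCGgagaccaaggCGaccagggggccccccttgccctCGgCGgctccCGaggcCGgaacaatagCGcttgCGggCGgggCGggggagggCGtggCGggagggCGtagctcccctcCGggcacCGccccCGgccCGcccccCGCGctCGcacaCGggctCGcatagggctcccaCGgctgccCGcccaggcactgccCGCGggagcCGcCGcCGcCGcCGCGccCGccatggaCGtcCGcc
Tox2, downstream start, chr2:163225204-163225503, plus strand: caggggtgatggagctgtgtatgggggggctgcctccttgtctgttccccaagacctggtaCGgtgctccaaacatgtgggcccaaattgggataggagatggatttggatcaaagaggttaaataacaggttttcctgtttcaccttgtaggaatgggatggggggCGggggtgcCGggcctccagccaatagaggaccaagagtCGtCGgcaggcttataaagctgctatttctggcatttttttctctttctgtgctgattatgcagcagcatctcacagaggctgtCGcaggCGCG
Tox4, chr14:52278896-52279195, plus strand: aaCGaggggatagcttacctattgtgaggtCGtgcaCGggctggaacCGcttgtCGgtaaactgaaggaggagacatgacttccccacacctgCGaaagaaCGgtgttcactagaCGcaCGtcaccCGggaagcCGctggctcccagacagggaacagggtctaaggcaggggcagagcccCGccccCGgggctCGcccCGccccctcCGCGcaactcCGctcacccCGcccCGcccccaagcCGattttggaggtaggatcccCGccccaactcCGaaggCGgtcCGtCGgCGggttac

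The upstream *Tox2* window held 38 CG dinucleotides and was 77.0% G or C, while the downstream window held 8 and was 53.3% G or C. Over all 32851 mouse windows the medians were 7 CG dinucleotides and 52.7% G or C. The upstream start thus lay in CG-dense sequence, with a CG count that 4.95% of all windows reached or exceeded, and the downstream start was near the median. The *Tox4* window was intermediate, with 27 CG dinucleotides and 65.7% G or C.

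A total of 6 short motifs, chosen after the values had been seen, were then searched on both strands of the 7 member windows. TATAAA, the TATA box, began 32 bases before the printed downstream *Tox2* start, and 13.6% of all windows held it. The interferon response core GAAANNGAA began 5 bases before the same start, on the minus strand, and occurred in 8.56% of all windows. The NFAT core GGAAA began 118 bases before that start, also on the minus strand, and was present in 61.3% of all windows. The neighboring downstream window, shifted by 1 base, held the same 3 matches. ACGTG, the hypoxia response core, matched only the *Tox4* window among the 7, 133 bases before its start, with 19.6% of all windows holding it. The STAT palindrome TTCNNNGAA, found in 8.30% of all windows, and the CREB palindrome TGACGTCA, found in 1.79%, matched none of the 7. These letter matches are a description and not measured binding.

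*Tox2* (ENSMUSG00000074607) was much lower in CITED2-deficient BMDMs. It is a protein-coding gene on chromosome 2, from 163203125 to 163324170 on the plus strand of mm10, and it has 5 annotated transcripts. The control libraries gave 11.5, 11.1 and 11.0 FPKM, and the CITED2-deficient libraries gave 0.907, 1.08 and 0.883 FPKM. The groups were far apart, and the replicates within each group lay close together. The means were 11.2 ± 0.245 (SD, n = 3) for control and 0.956 ± 0.106 (SD, n = 3) for CITED2-deficient libraries, an 11.7-fold lower level with 8.53% of the control FPKM left.

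Because the deposited FPKM step in units of 1 fragment, the reads behind these values could be recovered. *Tox2* rested on 339, 299 and 327 fragments of the control libraries and on 36, 38 and 36 of the CITED2-deficient ones, although the CITED2-deficient libraries were on average 1.34 times deeper. The ratio of control to CITED2-deficient fragments per unit of depth was 11.8, with an exact 95% interval of 9.67 to 14.5 that covers counting error only. On the log2(FPKM + 1) scale, on which the change of a weakly expressed gene appears smaller, the difference was -2.64 (standard error 0.09). This was the ninth largest fall among the 11687 tested genes, those whose mean FPKM over the 6 libraries was 1 or more. The same value was -3.42 with 0.1 added in place of 1. The FPKM belong to the whole gene, so they do not separate RNA begun at the upstream start from RNA begun at the downstream start. In RNA from a whole culture, fewer cells that express a gene and less RNA per cell cannot be told apart.

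*Tox4* (ENSMUSG00000016831) was the most abundant member and had nearly the same level in both genotypes. It lies on chromosome 14, from 52279146 to 52296401 on the plus strand, and has 5 annotated transcripts. The control libraries gave 47.2, 46.9 and 47.1 FPKM, and the CITED2-deficient ones gave 44.9, 50.3 and 48.2 FPKM. The 3 control values fell inside the range of the CITED2-deficient ones. The means were 47.1 ± 0.187 and 47.8 ± 2.68 (SD, n = 3 each), from 1633 to 1800 fragments per control library and 2287 to 2535 per CITED2-deficient library. The difference was 0.02 on the log2(FPKM + 1) scale (standard error 0.05), beside a median of -0.10 over all tested genes. With median-ratio scaling of the libraries, which brings that median to -0.01, the *Tox4* value was 0.12, and without CITED2-deficient replicate 2 it was -0.02.

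*Tox* and *Tox3* were close to the limit of detection. *Tox* (ENSMUSG00000041272, chromosome 4, 6686353 to 6991557, minus strand) was listed at 0.0455, 0 and 0 FPKM in the control libraries and at 0.0508, 0.0952 and 0.0494 FPKM in the CITED2-deficient libraries. These values came from 2, 0 and 0 fragments in the control libraries and from 3, 5 and 3 in the CITED2-deficient libraries. The groups did not overlap, but they rested on 2 and 11 fragments in all. The ratio of CITED2-deficient to control fragments per unit of depth was 4.09, with an exact 95% interval of 0.893 to 38.0 that covers counting error only. With so few fragments the ratio is only loosely set.

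*Tox3* (ENSMUSG00000043668, chromosome 8, 90247040 to 90348343, minus strand) gave 0, 0.0335 and 0.0611 FPKM in the control libraries. In the CITED2-deficient libraries it gave 0.0228, 0.0257 and 0. The groups overlapped, and with 3 fragments over the control group and 2 over the CITED2-deficient group no fold was computed. A count of 0 still allows 3 fragments in a library, which is 0.0494 to 0.0746 FPKM for *Tox* and 0.0666 to 0.101 FPKM for *Tox3*. The level of neither gene can be set apart from the other's in control BMDMs at this depth.

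**Figure D1:**
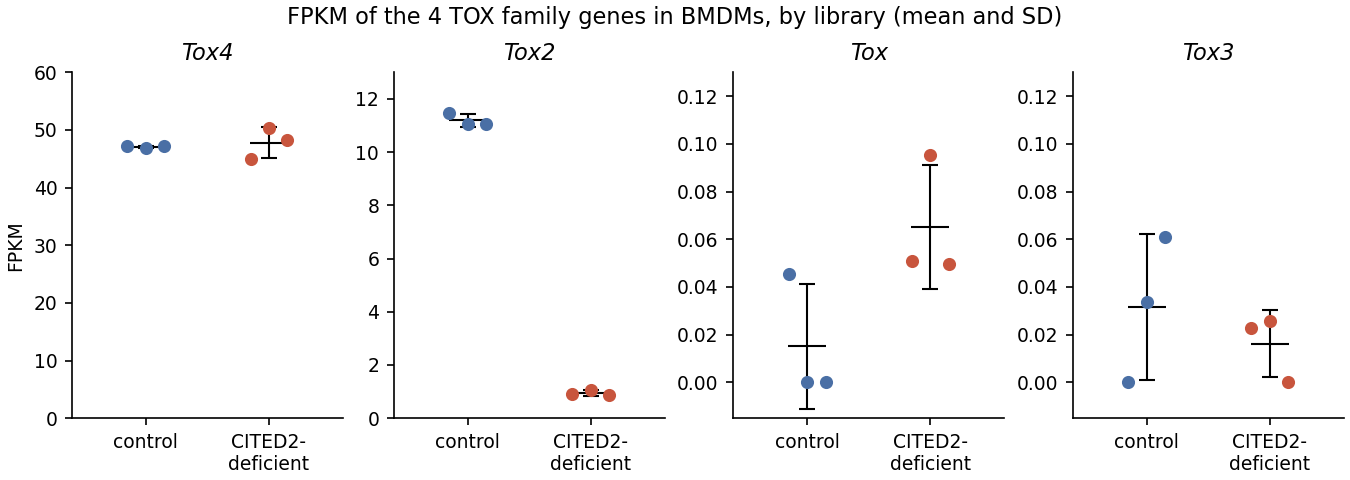
FPKM of *Tox4*, *Tox2*, *Tox* and *Tox3* in each of the 6 libraries, with 1 point per library, a bar for the group mean and whiskers of 1 SD (n = 3). The vertical scale differs between panels: *Tox2* is at 11.0 to 11.5 FPKM in control and 0.883 to 1.08 FPKM in CITED2-deficient BMDMs, *Tox4* lies between 44.9 and 50.3 FPKM in all libraries, and *Tox* and *Tox3* stay at or below 0.0952 FPKM.

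In control BMDMs the order of levels was *Tox4* above *Tox2*, with *Tox3* and *Tox* near 0, and in CITED2-deficient BMDMs *Tox4* and *Tox2* kept these places. The FPKM are scaled by the mean length of the annotated transcripts of a gene. Ratios between genes are therefore approximate, since the transcripts in use are not known, and the SDs do not cover this. *Tox4* was 4.20 ± 0.0806 times as high as *Tox2* in control libraries and 50.3 ± 4.01 times as high in CITED2-deficient libraries (SD, n = 3 each). It made up 80.4% to 80.9% of the summed FPKM of the family in control and 97.7% to 98.1% in CITED2-deficient libraries. The family sum was 58.3 ± 0.400 FPKM in control and 48.8 ± 2.78 FPKM in CITED2-deficient BMDMs (SD, n = 3 each). Of all listed genes, 30.5% had a higher mean than *Tox2* in the control group and 52.7% in the CITED2-deficient group, whereas 11.6% and 10.9% had a higher mean than *Tox4*.

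The background to these values was broad. Of the 11687 tested genes, 51.3% passed an adjusted p of 0.05 in limma in either direction, 16.7% as higher and 34.6% as lower in CITED2-deficient BMDMs, and 59.9% had groups that did not overlap. With median-ratio scaling 52.0% of the calls were higher, against 32.5% as deposited. *Tox2* and *Tox4* passed the level filter, and 1 of these 2, *Tox2*, had groups without overlap. *Cited2*, the deleted gene, gave 71.7, 79.3 and 75.5 FPKM in the control libraries and 9.27, 7.22 and 7.53 FPKM in the CITED2-deficient libraries, so the labels match the genotype. Its mean was 9.43-fold lower, a ratio of like size to that of *Tox2*.

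Genes known to act around TOX proteins were grouped into 8 lists of regulators, partners and relatives. Of 60 tested genes in these lists, 13 were higher, 25 were lower and 22 did not pass, so that 63.3% were called beside 51.3% of all tested genes. Their median log2 fold change was -0.08, close to the -0.10 of all tested genes. With median-ratio scaling of the libraries, 17 of these list genes were higher and 17 were lower. The counts of each list below stand beside 16.7% higher and 34.6% lower among all tested genes. The *Tox2* value of -2.64 was lower than that of each other tested list gene except *Cited2*, which belongs to the list of TOX3 partners. Since *Tox2* was chosen for its large difference, this order is a description only.

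**Figure D2:**
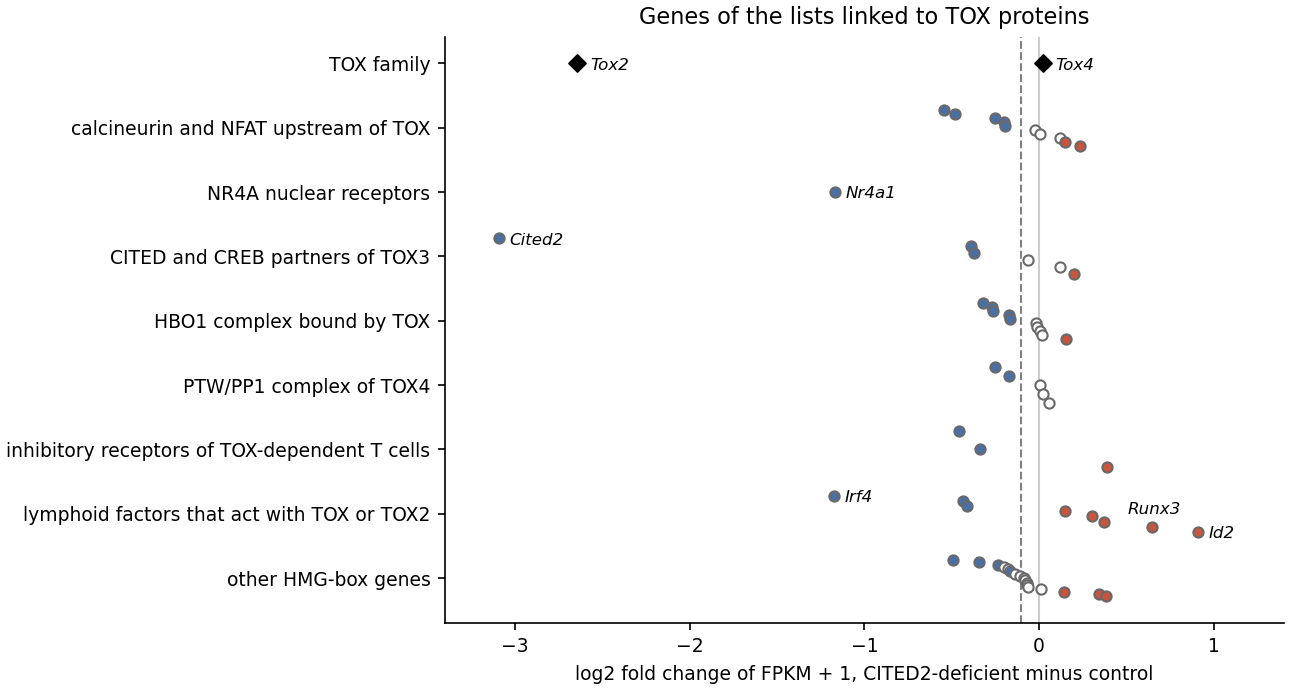
Log2 fold change (log2 of FPKM + 1, CITED2-deficient minus control) of each tested gene of the 8 lists, with 1 point per gene, filled red if higher, blue if lower and white if not past an adjusted p of 0.05 in limma. Black diamonds are *Tox2* (-2.64) and *Tox4* (0.02), shown without a test, and the dashed line is the median of all tested genes (-0.10); most list genes lie near that line, while *Cited2*, *Nr4a1* and *Irf4* lie furthest to the left.

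Upstream of TOX, the calcineurin and NFAT list had 12 genes, of which 10 were tested, 2 rose and 5 fell. *Nfatc2*, a calcium-activated transcription factor, had 35.0, 36.0 and 36.0 FPKM in control and 23.1, 25.5 and 23.8 FPKM in CITED2-deficient libraries, with a log2 fold change of -0.55 and a standard error of 0.05 (adjusted p = 1.54e-05 in limma). The calcineurin subunits *Ppp3cc* (-0.48), *Ppp3r1* (-0.25) and *Ppp3cb* (-0.20) fell, and so did *Nfatc1* (-0.19). *Ppp3ca*, the most abundant catalytic subunit gene of calcineurin, named here outside the rule, rose from 113, 110 and 113 FPKM in control to 124, 127 and 121 FPKM in CITED2-deficient libraries (0.15, adjusted p = 0.00361 in limma), so the subunit genes moved in both directions. *Rcan1*, an inhibitor of calcineurin, rose (0.24). The NFAT genes thus did not move as one group, since *Nfatc3* had a log2 fold change of 0.01 and *Nfat5* of 0.12 and neither passed. *Nfatc4*, below the level filter and named after its values were seen, had means of 0.450 FPKM in control and 1.39 FPKM in CITED2-deficient libraries. Its groups did not overlap (46 and 191 fragments in all). The calls of *Nfatc1* and *Ppp3cb* were lost with median-ratio scaling, that of *Nfatc1* also with quantile normalization or without control replicate 1, and that of *Rcan1* without CITED2-deficient replicate 3.

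Of the 3 NR4A receptors, nuclear receptors that act with TOX in exhausted T cells, *Nr4a1* was the only one above the level filter. It had 5.27, 5.95 and 5.29 FPKM in control and 2.04, 1.84 and 1.81 FPKM in CITED2-deficient libraries. The values of the groups were well apart, with a log2 fold change of -1.17 and a standard error of 0.10 (adjusted p = 1.03e-05 in limma). *Nr4a2* and *Nr4a3* stayed below 0.5 FPKM in all 6 libraries, with overlapping groups.

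Among the CITED and CREB partners of TOX3, 7 of 8 genes were listed, 6 were tested, 1 rose and 3 fell, *Cited2* included. *Creb1* (-0.37) and *Crem* (-0.39), which encode factors bound to cAMP response elements, fell, and the acetyltransferase gene *Ep300* rose (0.20). *Crebbp* (-0.07) and *Atf1* (0.12) did not pass. TOX3 itself was near 0 in these cells, as given above.

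The HBO1 histone acetyltransferase complex, which TOX binds in T cells, had 10 tested genes, of which 1 rose and 5 fell by small amounts. *Kat7*, its catalytic subunit, had a log2 fold change of -0.02 and did not pass. The scaffold and reader genes *Jade1* (-0.32), *Ing5* (-0.27), *Brd1* (-0.26), *Brpf3* (-0.17) and *Meaf6* (-0.16) fell, and *Jade2* rose (0.15). The calls of *Jade1*, *Brpf3* and *Meaf6* were lost with median-ratio scaling and with quantile normalization, that of *Jade1* also with no filter on low levels, with control replicate 2 left out or with CITED2-deficient replicate 3 left out, and those of *Brpf3* and *Meaf6* in 10 of 15 alternatives each. The 10 included each single library left out for *Brpf3* except control replicate 2, and for *Meaf6* control replicates 2 and 3 and CITED2-deficient replicates 2 and 3. The call of *Jade2* was lost without control replicate 1, control replicate 3 or CITED2-deficient replicate 3.

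TOX4 works in the PTW/PP1 complex, whose 5 other genes were all tested. None rose, and *Ppp1cc* (-0.25) and *Ppp1cb* (-0.17), 2 catalytic subunits of protein phosphatase 1, fell. The call of *Ppp1cb* was lost with median-ratio scaling. *Ppp1r10*, the scaffold, was at 44.3, 41.0 and 40.7 FPKM in control and 41.7, 44.8 and 41.7 FPKM in CITED2-deficient libraries, and its groups overlapped. *Wdr82*, the third core partner, had a log2 fold change of 0.00, and the catalytic subunit gene *Ppp1ca* had 0.06, and neither passed. *Ppp1r10* and *Wdr82* thus stood at levels near that of *Tox4* in both genotypes. The 3 catalytic subunit genes were higher. Their control and CITED2-deficient means were 180 and 188 FPKM for *Ppp1ca*, 168 and 141 FPKM for *Ppp1cc*, and 58.3 and 51.6 FPKM for *Ppp1cb*.

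The inhibitory receptors that TOX sustains in exhausted T cells were mostly missing, with 7 of 10 below the filter. *Pdcd1*, which encodes PD-1, was listed at 0 in 2 control and 2 CITED2-deficient libraries and stayed below 0.03 FPKM in the others. The 3 that were tested are also known from macrophages. *Entpd1*, which encodes the ectonucleotidase CD39 (-0.46), and *Cd200r1* (-0.34) fell, and *Havcr2*, which encodes TIM-3, rose (0.39). The call of *Havcr2* was lost in 5 of 14 alternatives, among them those without control replicate 1, control replicate 3, CITED2-deficient replicate 1 or CITED2-deficient replicate 2.

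Of 13 lymphoid transcription factors that act beside TOX or TOX2, 8 were tested, and 5 rose and 3 fell. *Irf4* had 6.01, 6.18 and 5.62 FPKM in control and 1.91, 2.39 and 1.95 FPKM in CITED2-deficient libraries, with a log2 fold change of -1.17 and a standard error of 0.10 (adjusted p = 1.30e-05 in limma). *Id2*, an inhibitor of E proteins needed for innate lymphoid cells, moved the other way, from 60.3, 63.0 and 60.4 FPKM in control to 118, 113 and 117 FPKM in CITED2-deficient libraries. On the log2 scale *Id2* rose by 0.91 with a standard error of 0.03 (adjusted p = 5.37e-08 in limma). *Nfil3* (-0.44) and *Batf* (-0.41) fell, and *Runx3* (0.65) and *Prdm1* (0.37) rose. *Tcf7*, *Lef1*, *Gata3*, *Tbx21* and *Eomes*, which define lymphoid lineages, were below 1 FPKM in all 6 libraries. Of these, *Tcf7* had groups that did not overlap, with 23 fragments over the control and 68 over the CITED2-deficient libraries. The groups of the others overlapped. The call of *Batf* was lost without the filter on low levels.

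The relatives of TOX proteins by domain, 34 listed genes with a high-mobility-group box, had 17 tested members, of which 3 rose and 4 fell. *Hmgb1*, an abundant chromatin protein, fell from 180, 194 and 179 FPKM in control to 132, 129 and 131 FPKM in CITED2-deficient libraries, a log2 fold change of -0.49. Reads of *Hmgb1* may be shared with its processed pseudogenes, which makes its level less certain. *Hmgb2* (-0.34), *Hmgxb4* (-0.24) and *Ssrp1* (-0.17) also fell, and *Hmg20b* (0.38) and *Tcf7l2* (0.34) rose. The calls of *Hmgxb4* and *Ssrp1* were lost with median-ratio scaling. The 41.2% of tested box genes that were called lay below the 51.3% of all tested genes. No other box gene reached the size of the *Tox2* difference, by which the family was chosen.

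The chromosomal surroundings of the members were examined next. On either side of *Tox2* the nearest listed genes, *Gm11454* and *Jph2*, were below 0.2 FPKM in all libraries. Within 1000 kb of the *Tox2* start 15 other genes were tested, of which 1 rose, 8 fell and 6 did not pass, with a median log2 fold change of -0.22. Over all tested genes 16.7% were higher and 34.6% were lower, and the median was -0.10. Whether the region differs from the other genes was not tested. The values ran from -1.02 for *Serinc3*, which encodes a membrane protein, to 1.38 for *Wisp2*, which encodes a secreted matrix protein, both singled out after their values were seen. The lowest value among the 15 was well above the -2.64 of *Tox2*. *Tox2* was chosen for its large difference, so this comparison carries no test.

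**Figure D3:**
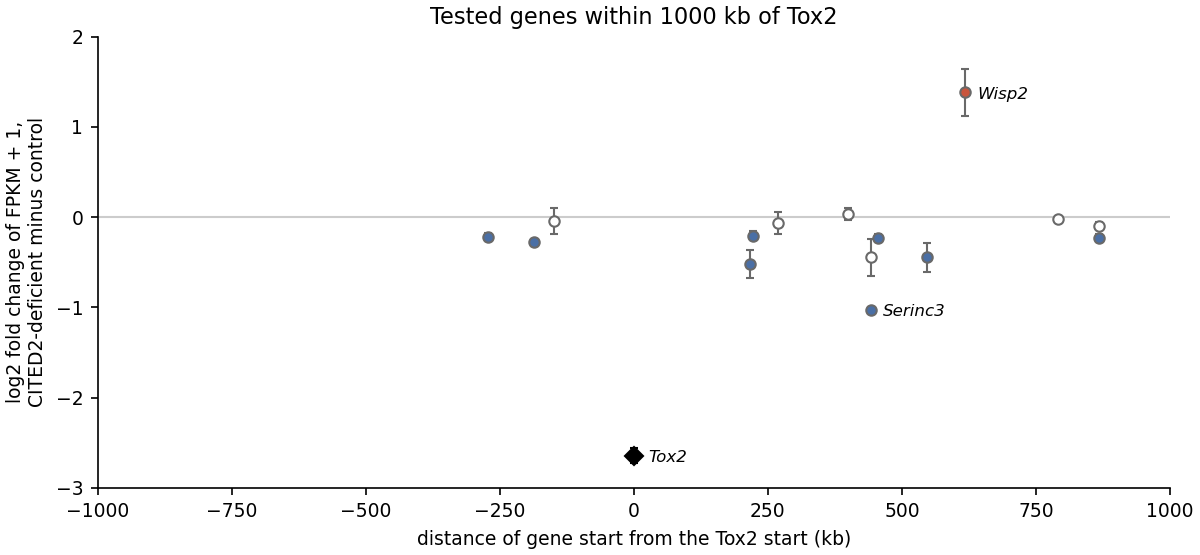
Log2 fold change (log2 of FPKM + 1, CITED2-deficient minus control) of *Tox2* (black diamond, -2.64) and of the 15 other tested genes whose start lies within 1000 kb, against the distance of the gene start from the *Tox2* start in kb. Whiskers are the standard error from limma, and red, blue and white fill mark genes that were higher, lower or not past the threshold; the lowest of the 15 is *Serinc3* at -1.02.

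*Tox4* overlaps both of its neighbors, which lie on the opposite strand, *Rab2b* by 400 bp and *Mettl3* by 1561 bp. *Rab2b*, a gene of vesicle transport, had a log2 fold change of -0.29 (adjusted p = 0.0602 in limma), and *Mettl3*, the m6A methyltransferase gene, had -0.20 (adjusted p = 0.135 in limma), so neither passed. *Rab2b* passed without a variance trend (-0.29), and *Mettl3* passed without CITED2-deficient replicate 2 (-0.30). The libraries were stranded, but no source used here states the strand setting of the counting, and reads in the overlaps may be shared. Next to *Tox*, *Nsmaf* was expressed (0.02, not past the threshold) and *Car8* was below 0.05 FPKM. Next to *Tox3*, *Chd9* was expressed (-0.09, not past the threshold) and *Gm5356* was listed at 0 in 5 of 6 libraries.

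The pattern of *Tox2* over the 6 libraries was shared by many genes. The 3 genes with the highest Pearson correlation of log2(FPKM + 1) were *Nxpe5*, *Man2a2*, which encodes a Golgi mannosidase, and *F13a1*, which encodes a coagulation factor subunit made by macrophages, each with r = 1.00 after rounding. *F13a1* had 186, 174 and 176 FPKM in control and 24.8, 25.6 and 23.8 FPKM in CITED2-deficient libraries. In all, 409 genes (3.50% of the 11686 others) had r of at least 0.99. For *Tox4*, which varied little, the closest genes were *Golga7* (r = 0.99), *C330018D20Rik* (r = 0.98) and *Slc2a9* (r = 0.96), and none of the 3 passed the threshold. *Tox2* had 1 level per group, so any gene with a large and even fall between the groups has r near 1 with it. The *Tox2* correlations thus restate the contrast between the genotypes and do not show regulation in common. The points also share libraries and depth, so these values carry no test.

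Because TOX proteins are known mainly from lymphocytes, markers of other cell types were set beside the *Tox2* result. The cells had high levels of macrophage markers, with the 3 highest, *Adgre1*, *Cd68* and *Csf1r*, at 906 to 2234 FPKM, and the summed level of the 8 macrophage markers was 5624 to 5694 FPKM in control and 5287 to 5367 FPKM in CITED2-deficient libraries. *Lyz2*, whose locus carries the Cre, was lower than these at 30.6 to 32.5 FPKM in control and 9.39 to 10.0 FPKM in CITED2-deficient libraries. Of the macrophage list 1 gene was higher and 5 were lower. Among all tested genes 16.7% were higher and 34.6% were lower. The counts of the other marker lists stand beside these shares.

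Defining T cell markers were at or near 0, with *Cd3d*, *Cd3e*, *Cd3g* and *Cd8a* below 0.25 FPKM in all 6 libraries. Of 14 T cell markers 11 were below 1 FPKM in all libraries. Among these, named after their values were seen, *Lck* (15 control and 46 CITED2-deficient fragments in all) and *Cd3e* (2 and 14) had groups that did not overlap. Both were higher in CITED2-deficient libraries. The groups of the others below 1 FPKM overlapped, among them *Trbc2* (7 and 27 fragments), *Trac* (4 and 17) and *Cd247* (10 and 4). The summed T cell list was 177 to 185 FPKM in control and 257 to 274 FPKM in CITED2-deficient libraries, and nearly all of it was *Il7r*, *Cd28* and *Cd4*, of which *Il7r* rose and *Cd28* and *Cd4* fell. None of the 11 listed natural killer and innate lymphoid markers passed the level filter, and *Ncr1*, *Klrb1c*, *Prf1*, *Tbx21*, *Eomes* and *Gata3* were below 0.3 FPKM in all libraries. Other members of the list, named after their values were seen, had groups that did not overlap. *Klrk1*, which encodes the receptor NKG2D, had a mean of 0.145 FPKM in control and 1.36 FPKM in CITED2-deficient libraries (14 and 174 fragments in all), and *Klrd1* had 0 and 13 fragments. *Il1rl1*, which encodes the interleukin-33 receptor, went the other way, with means of 1.35 and 0.594 FPKM. That list summed to 1.94 to 2.65 FPKM in control and 2.84 to 3.60 FPKM in CITED2-deficient BMDMs. The part of lymphoid cells in the *Tox2* result was not tested.

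Granulocyte markers moved in the direction of *Tox2* in part. Of 11 genes, 7 were lower and 2 were higher, while their sum was 807 to 875 FPKM in control and 736 to 855 FPKM in CITED2-deficient libraries, so that the ranges overlapped. The 2 that rose, named after their values were seen, were *Ltf* and *Csf3r*, with log2 fold changes of 0.90 and 0.29. *Ltf* had a mean of 94.3 FPKM in control and 177 FPKM in CITED2-deficient libraries. The most abundant, *S100a9*, *S100a8* and *Ngp*, had log2 fold changes of -0.11, -0.40 and -0.33, of which the first did not pass. The largest falls, named after their values were seen, were in genes of primary granules made by early precursors. *Mpo* (myeloperoxidase) had 17.4, 17.8 and 13.6 FPKM in control and 2.24, 1.70 and 1.92 FPKM in CITED2-deficient libraries, and *Prtn3* (-2.12), *Elane* (-2.08) and *Ctsg* (-1.68) fell with it. The part of such cells in the *Tox2* result was not tested.

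The list of mast cells, basophils and progenitors summed to 4.18 to 4.96 FPKM in control and 1.86 to 2.30 FPKM in CITED2-deficient libraries, with 7 of 8 genes below the filter. The largest difference in mean FPKM, named after its values were seen, was in *Prss34*, a basophil protease gene with 93 fragments over the control and 1 over the CITED2-deficient libraries. *Kit*, the tested member, had a log2 fold change of -0.13 and did not pass, and *Cd34* had 13 and 47 fragments with overlapping groups. The summed fibroblast and stromal markers went the other way, at 56.9 to 67.1 FPKM in control against 216 to 613 FPKM in CITED2-deficient libraries, with all 9 tested genes higher and CITED2-deficient replicate 1 far above the other 2. The excess of that library was mostly *Col1a1* (305 FPKM against 62.0 and 62.6) and *Col1a2* (175 FPKM against 66.3 and 63.6). *Postn* (6.59 FPKM against 1.89 and 1.92) was also far higher there. *Pdgfra* (4.85 FPKM against 3.90 and 3.95) differed less, and *Dcn* (6.83 FPKM against 6.18 and 7.53) was not highest there. These genes were named after their values were seen. Without that library the *Tox2* log2 fold change was -2.62. Endothelial markers summed to 13.3 to 15.9 FPKM in control and 40.4 to 44.4 FPKM in CITED2-deficient libraries, with 3 of 4 tested genes higher. Most of that difference was *Kdr*, with means of 4.26 FPKM in control and 27.5 FPKM in CITED2-deficient libraries. *Vwf* (7.07 and 10.5 FPKM) and *Cdh5* (0.720 and 1.52 FPKM) rose less, and *Pecam1* (0.929 and 1.33 FPKM) did not pass. *Egfl7* (0.763 and 0.709 FPKM), below the filter and named after its values were seen, had overlapping groups. The dendritic cell list, at 271 to 279 and 796 to 904 FPKM, was almost wholly *Bst2* and *Itgax*, both higher. *Flt3* and *Zbtb46* were below 0.35 FPKM, while *Clec9a* (means of 0.429 and 1.21 FPKM), *Ccr7* (0.203 and 0.572 FPKM) and *Xcr1* (4 and 34 fragments in all), below the filter and named after their values were seen, were higher in each CITED2-deficient library than in any control library. B cell markers summed to 3.23 to 5.15 FPKM in control and 4.21 to 4.93 FPKM in CITED2-deficient libraries, with 1 of 2 tested genes higher. The part of these cell types in the *Tox2* result was not tested.

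**Figure D4:**
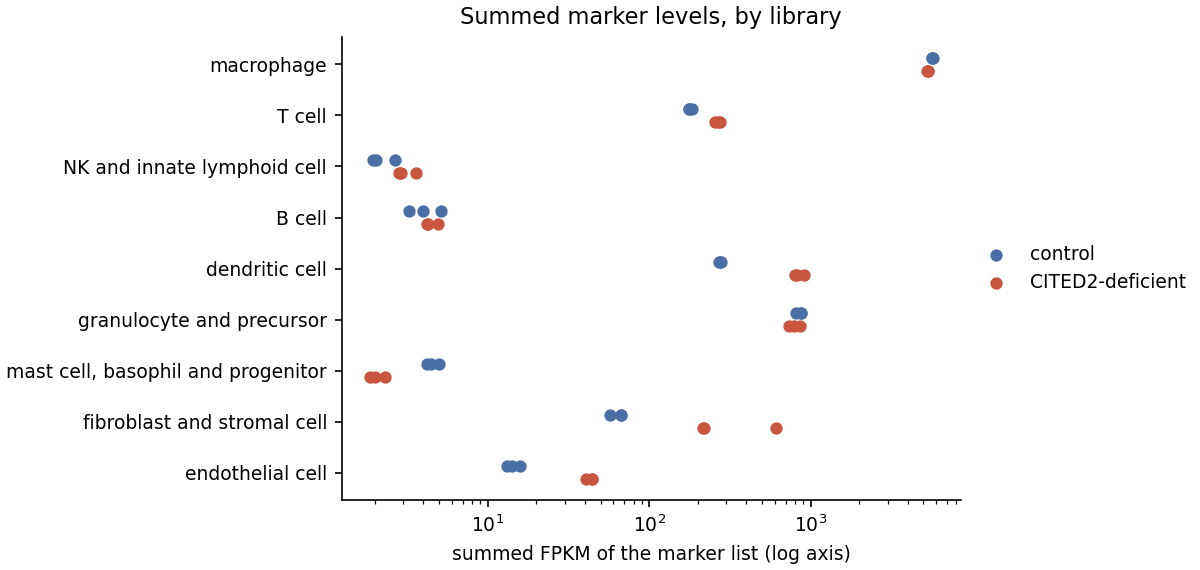
Summed FPKM of each marker list on a log axis, with 1 point per library (blue for control, red for CITED2-deficient BMDMs). The macrophage sum is highest in all libraries, the natural killer, B cell and mast cell lists stay below 6 FPKM, and the stromal sum reaches 613 FPKM in CITED2-deficient replicate 1.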

How the data were processed

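RNA of 6 BMDM libraries was measured. The authors removed ribosomal RNA, mapped stranded reads with STAR to mm10 and deposited 1 FPKM per gene and library from Cuffdiff with GENCODE, not pooled over replicates; for tool versions and the annotation release, no source used here gives a value. Because FPKM are scaled to library size, strongly changed genes can shift the rest.

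Members and gene lists were chosen with earlier results of these data known. The promoter motifs were chosen after the values had been seen. Named genes follow a rule: the members, *Cited2*, the nearest listed gene on each side of a member, the 3 tested genes closest to an expressed member, up to 6 called genes per list with the largest change or any gene said not to pass, and markers near 0 or among the 3 highest of a list.

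Fragments were recovered with mean transcript lengths of GENCODE vM21: 96.1% of 22239 matched genes came out within 0.02 of whole numbers in all 6 libraries, all 4 members among them. The depth was 17289286 to 18952077 fragments in control and 22583995 to 26100410 in CITED2-deficient libraries. Replicates differed by more than sampling noise. Log2(FPKM + 1) of the 11687 genes whose mean FPKM was 1 or more was fitted in limma 3.58.1 (R 4.3.3) with a variance trend, on genotype alone, and p-values were adjusted by Benjamini-Hochberg with a threshold of 0.05. The fit was also run on simulated data in which 200 genes changed. Far more genes were called here, so that run does not measure the error of the calls in these data. With 3 against 3 libraries the precision rests on few replicates, and intervals and floors of 3 fragments cover counting error only. Alternatives were other pseudocounts, filters and scalings, no trend, a replicate block, limma-voom on recovered fragments and each library left out. Gene coordinates are those of GENCODE vM21 (GRCm38, the same assembly as mm10). *Cited1*, *Sox3*, *Sox8* and some marker genes of the lists were not analysed here.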

Additional observations from a re-analysis of the deposited data

How the results depend on the processing

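The *Tox2* log2 fold change stayed negative under the 15 alternatives. It was -3.42 with a pseudocount of 0.1, -3.01 with 0.5, -3.55 with limma-voom on recovered fragments and -2.57 with median-ratio scaling, against -2.64 as reported, and these shifts exceeded the replicate SD. Leaving out each library in turn gave -2.69 to -2.62. For *Tox4*, reported as 0.02, median-ratio scaling gave 0.12 and quantile normalization 0.079, and the leave-one-out values ran from -0.02 to 0.06, so its sign depends on the library left out. The count of called genes, 5994 as reported, ran from 5226 to 5467 with a library left out, and it was 5186 with median-ratio scaling (2696 higher and 2490 lower). Of the list genes 38 were called, 13 higher and 25 lower, and 32 to 39 with a library left out. With median-ratio scaling 34 were called, 17 higher and 17 lower, so the balance of directions depends on the scaling. Replicate numbers did not pair the libraries: same-numbered libraries had correlations of deviations of 0.01, 0.01 and 0.04. A fit with the replicate block called 5708 genes and left *Tox2* at -2.64. Among the neighbors, which did not pass as reported, *Nsmaf* reversed to -0.0042 without CITED2-deficient replicate 2 (leave-one-out range -0.0042 to 0.067) and *Chd9* to 0.0057 with median-ratio scaling. Of 34 called list genes named by the rule, 22 kept their call under all alternatives run and 12 lost it in 1 or more. Depth limits *Tox* and *Tox3*, at no more than 5 fragments in any library. The causes of these shifts were not tested.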
